A study of Homo sapiens with 6 samples.

Results

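The genes described here are 32 genes of sterol and fatty acid synthesis and of its control, out of 58884 genes listed in the deposited table. They are the rows whose gene name is on a list of 32 names. Of the 32, 18 encode enzymes of the sterol pathway, 4 encode the proteins that control it, 2 encode sterol carriers, and 8 encode enzymes of fatty acid and glycerolipid synthesis. The set is therefore wider than synthesis alone, since STARD4 and NPC1 move sterol and INSIG1 and SCAP make no lipid. Each of the 32 names matched 1 row, and all 32 genes were among the 13869 genes that passed the filter on low values and were tested.

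Cholesterol is built from acetyl-CoA. The mevalonate enzymes make isoprenoid units and join them to farnesyl diphosphate, the branch point to prenylated proteins, dolichol and ubiquinone. Squalene synthase commits farnesyl diphosphate to sterols, squalene is closed to lanosterol, and a chain of demethylations, reductions and isomerisations then gives cholesterol. Fatty acid synthesis starts from the same acetyl-CoA, which ACLY releases from citrate in the cytosol. Transcription of both pathways is driven by the SREBP factors, encoded by SREBF1 and SREBF2. SCAP carries them out of the endoplasmic reticulum when sterol is scarce, and INSIG1 holds them back when sterol is plentiful. SREBP-2 is known mainly for sterol genes, and SREBP-1c for fatty acid genes. Cultured kidney epithelial lines run both pathways to supply membranes for division.

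RNA was profiled in HEK293FT, an established human embryonic kidney line that carries the SV40 large T antigen. Cells grown in medium with fetal bovine serum received, for 72 h, either supernatant with secreted ISLR (3 libraries, labelled ISLR) or empty-vector control supernatant (3 libraries, labelled NC). The protein ISLR carries leucine-rich repeats and is secreted. Separate cultures are not stated for the 3 libraries of a group, so p-values reflect the spread among libraries alone, and that spread may be technical.

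The values are TPM, a transcript share corrected for gene length, with library totals of 984556.67 to 987783.8 over the listed genes. TPM keeps no record of sequencing depth, so the depth is unknown and no counting error can be given. The transcript of ISLR stood at 0, 0.02 and 0 TPM under the ISLR label and at 510.32, 555.37 and 535.06 TPM under the NC label. The transcript is thus high in the libraries whose label names the empty vector. The labels mention no ISLR construct in the profiled cells, and the table does not show where this RNA came from, so what the groups differ in is uncertain. For that reason libraries are named here by label only, and every direction given would turn round if the labels had been swapped. Of 8 markers of the HEK293 line, 8 reached 1 TPM in at least 3 libraries, with summed levels of 258.93 to 275.49 TPM under the ISLR label and 216.93 to 257.49 under the NC label. Fibroblast markers summed to 13.33 to 14.13 and 11.07 to 16.82 TPM, blood cell markers to 0.88 to 3.79 and 1.51 to 2.04 TPM, and hepatocyte markers to 0.09 to 0.59 and 0.04 to 0.23 TPM, in the same order. CD3E and CYP3A4 were listed at 0 in all 6 libraries. Among the HEK293 markers, PAX2 reached 1 TPM only under the NC label, at 1.17 to 1.5 TPM against 0.81 to 0.95 under the ISLR label. NEFM, at 149.08 to 192.63 TPM, made up most of each HEK293 sum. EYA1 stood at 42.13 TPM in labelled NC replicate 3 and at 1.89 to 3.02 TPM in the other libraries. In such bulk libraries, fewer cells expressing a gene and less of its RNA per cell cannot be told apart.

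Promoter sequence was examined because the set is known as a group of SREBP targets, and SREBP acts with the factors NF-Y and Sp1. RefSeq promoter windows on GRCh38.p14, each from 250 bases before to 50 bases after a transcript start, were matched to 28 of the 32 genes (39 windows, some genes having several starts). The 4 stretches from those windows shown here each run 5′ to 3′ on the gene's own strand and hold no exon of the gene in GENCODE 29. The ACLY stretch lies inside the annotated gene, since another transcript of it starts farther upstream. Those of MSMO1 and ACLY belong to a gene lower and a gene higher in the libraries labelled ISLR on both scales used, and those of INSIG1 and SREBF2 to control genes of the pathway. Capitals mark the motifs searched, on either strand: TCACCCCAC for the sterol regulatory element, CCAAT for NF-Y, which reads ATTGG on the other strand, GGGCGG for Sp1, which reads CCGCCC there, and CACGTG for the E box.
MSMO1, chr4:165327419-165327622, plus strand: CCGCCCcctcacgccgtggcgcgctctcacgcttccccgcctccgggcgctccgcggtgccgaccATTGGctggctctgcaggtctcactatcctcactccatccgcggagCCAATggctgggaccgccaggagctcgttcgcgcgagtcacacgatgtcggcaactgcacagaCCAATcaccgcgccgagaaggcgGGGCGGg
ACLY, chr17:41919023-41919272, minus strand: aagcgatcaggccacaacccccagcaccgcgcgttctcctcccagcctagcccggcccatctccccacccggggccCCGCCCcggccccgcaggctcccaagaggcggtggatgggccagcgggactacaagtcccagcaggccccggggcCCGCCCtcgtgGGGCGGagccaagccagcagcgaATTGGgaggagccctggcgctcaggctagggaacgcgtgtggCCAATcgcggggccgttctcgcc
INSIG1, chr7:155297628-155297775, plus strand: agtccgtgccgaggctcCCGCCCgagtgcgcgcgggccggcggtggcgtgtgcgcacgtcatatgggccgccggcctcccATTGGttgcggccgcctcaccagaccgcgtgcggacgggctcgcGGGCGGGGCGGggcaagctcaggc
SREBF2, chr22:41832855-41833078, plus strand: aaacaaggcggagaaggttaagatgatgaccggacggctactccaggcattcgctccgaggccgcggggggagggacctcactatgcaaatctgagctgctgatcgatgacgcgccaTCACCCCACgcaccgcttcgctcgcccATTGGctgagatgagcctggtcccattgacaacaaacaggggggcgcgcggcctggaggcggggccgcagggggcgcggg

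The SREBF2 stretch holds the complete sterol regulatory element, starting 133 bases before the RefSeq start, with an inverted CCAAT box following it. It was the only match to TCACCCCAC among the 39 windows of the set (2.56%), against 0.43% of all 35116 windows. With 1 free base, as TCACNCCAC, it was again the only match, against 1.13% of all windows. The MSMO1 stretch holds 3 CCAAT boxes and 2 GGGCGG matches, and the ACLY stretch 2 and 3. The INSIG1 stretch holds 1 CCAAT box and 3 GGGCGG matches, of which the last 2 overlap. CCAAT was present in 24 of the 39 windows (61.5%, 20 genes) against 34.6% of all windows, and GGGCGG in 34 (87.2%, 27 genes) against 45% of all windows. CACGTG was present in 5 windows (12.8%) against 7.26%, namely those of INSIG1, LSS, SC5D and SCAP, and for INSIG1 it lies outside the printed stretch. These matches describe letters in a window. The search does not cover sites that depart further from the letters searched, or sites elsewhere in a gene. A window without a match may therefore still hold a sterol regulatory element. All 35116 windows were taken whether or not their gene was expressed here, and no share was computed among expressed genes alone. The shares therefore cannot tell a trait of this set from one of expressed genes.

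Going by the labels, the comparison between the groups asks how the cells' transcriptome differed after the 2 supernatants. In the libraries labelled ISLR, squalene synthase FDFT1 and the C4-methylsterol oxidase MSMO1 stood at 0.758 and 0.766 times their mean TPM in the libraries labelled NC, while the lysosomal cholesterol exporter NPC1 stood at 1.58 times and the citrate lyase ACLY at 1.35 times. These 4 genes were called on both scales described next. Most other genes of the set had smaller folds, and the direction of 16 of them reversed between the scales. Each gene was tested with limma, a linear model that shares information on variance between genes, on log2(TPM + 1). Adjusted p is the Benjamini-Hochberg value over the 13869 tested genes, two-sided, and a gene was called higher or lower in the libraries labelled ISLR at an adjusted p under 0.05. The pseudocount of 1 makes a log2 fold understate the change of low genes.

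Of the 32 genes, 9 were called higher and 2 lower on the deposited TPM. Over all tested genes 38.5% were called higher and 7.38% lower, and 45.9% were called in either direction. The median log2 fold was 0.16 for the 32 genes and 0.22 for all tested genes, so on the deposited values the typical gene itself stood above 0. Each library was therefore also divided by its median-of-ratios factor, the typical ratio of its genes to their mean over the 6 libraries. These factors were 1.07 to 1.11 under the ISLR label and 0.911 to 0.928 under the NC label, and after this scaling the tested genes had a median of 0.00. A fold after scaling is thus a fold relative to the typical gene. After scaling 2 of the 32 genes were called higher and 9 lower, where 18.2% and 20.4% of all tested genes were called, and their median log2 fold was -0.08. As shares, 28.1% and 6.25% of the set were called higher and lower on the deposited TPM, and 6.25% and 28.1% after scaling. The 4 genes called the same way on both scales were NPC1 and ACLY, higher, and FDFT1 and MSMO1, lower, against 18.2% of all tested genes higher and 7.38% lower on both. Over all tested genes, each gene called higher after scaling was also called higher on the deposited TPM. Likewise, each gene called lower on the deposited TPM was also called lower after scaling. A call on both scales is therefore the stricter of 2 nested calls, with no second, independent support. Of the 9 genes called lower after scaling, 4 were called lower after quantile normalization (FDFT1, MSMO1, EBP and STARD4), 8 with the length trend removed and 3 with the expression trend removed (FDFT1, MSMO1 and STARD4). The deposited TPM of the 2 groups did not overlap in 19 genes that were higher and 2 that were lower under the ISLR label. Of all tested genes, 46.3% and 10.5% did not overlap in these directions. After scaling, the non-overlap counts for the set turned round to 4 higher and 11 lower, against 26.1% and 26.6% of all tested genes.

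**Figure D1:**
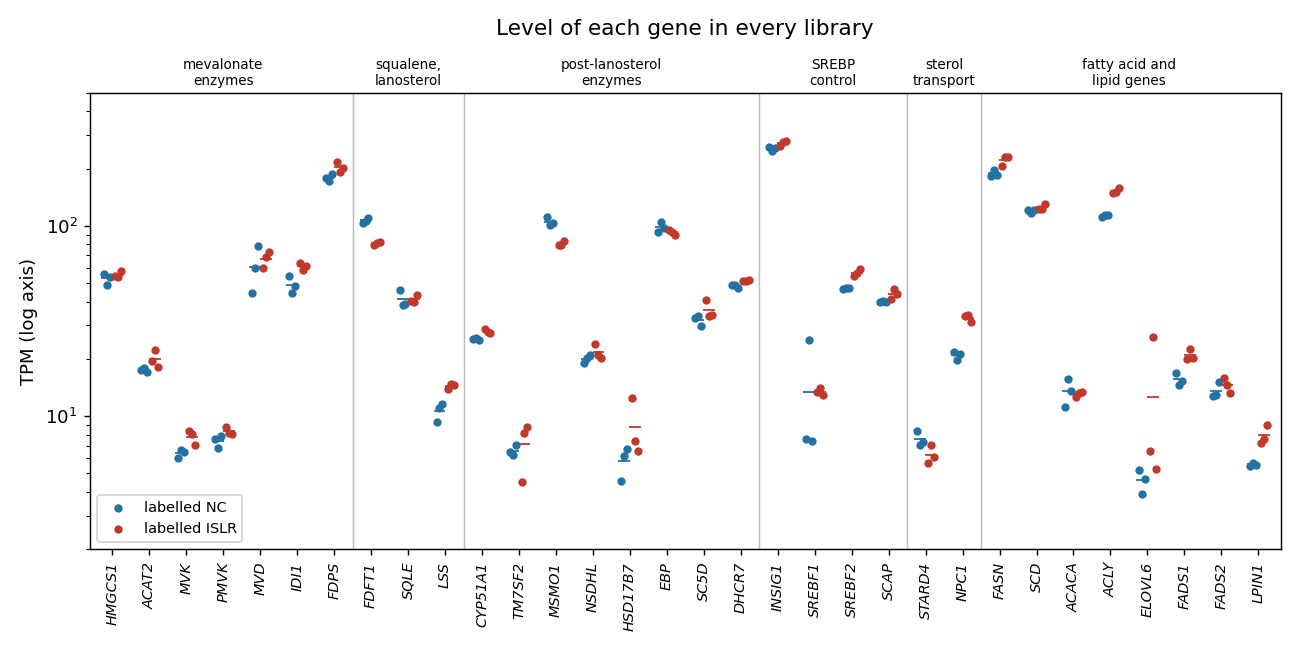
Level of each of the 32 genes in every library, in TPM on a log axis, grouped by role; points are libraries (blue labelled NC, red labelled ISLR) and short lines are group means. FDFT1 and MSMO1 have all 3 red points below the blue ones and NPC1 and ACLY all 3 above them, while a single library stands apart for ELOVL6 (26.1 TPM, labelled ISLR replicate 2) and for SREBF1 (25.05 TPM, labelled NC replicate 2).

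The 7 mevalonate enzymes run from acetyl-CoA to farnesyl diphosphate, and 2 of them, IDI1 and FDPS, were called higher on the deposited TPM and none lower. After scaling none was called higher and HMGCS1 was called lower. IDI1, which interconverts the isoprenoid units, stood at 63.9, 58.31 and 61.76 TPM under the ISLR label and at 54.24, 44.6 and 48.41 TPM under the NC label. The 3 libraries labelled ISLR were all above the 3 labelled NC. Its log2 fold was 0.32 (95% interval 0.14 to 0.50, limma adjusted p = 0.0129), and 0.07 after scaling (adjusted p = 0.481).

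FDPS, which makes farnesyl diphosphate, was the most abundant of the sterol enzymes, at 216.94, 190.8 and 200.38 TPM under the ISLR label and at 177.46, 172.1 and 186.26 TPM under the NC label. The groups did not overlap, with a gap of a few TPM between the lowest library labelled ISLR and the highest labelled NC. The log2 fold was 0.18 (0.05 to 0.31, limma adjusted p = 0.0300) and turned to -0.07 after scaling (adjusted p = 0.398). The call was lost without labelled ISLR replicate 1 (adjusted p = 0.0708) or 3 (0.0687) and without labelled NC replicate 1 (0.0743) or 2 (0.0895).

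HMGCS1, which makes the substrate of the rate-limiting reductase, stood at 54.32, 53.95 and 57.63 TPM under the ISLR label and at 56.05, 48.97 and 53.70 TPM under the NC label. The groups overlapped. Its log2 fold was 0.06 on the deposited TPM (limma adjusted p = 0.423) and -0.18 after scaling (adjusted p = 0.0392). ACAT2, the cytosolic thiolase that starts the pathway, and the kinases MVK and PMVK had log2 folds of 0.18, 0.25 and 0.15 with no overlap between groups, and none was called on either scale. For MVK the deposited value reached a call without labelled ISLR replicate 3 (limma adjusted p = 0.0483). MVD, the decarboxylase that follows, varied more among the libraries labelled NC than between the groups, from 44.5 to 78.12 TPM in the libraries labelled NC and from 60.07 to 73.24 TPM in those labelled ISLR.

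Of the 3 steps from farnesyl diphosphate to lanosterol, FDFT1 was called lower and LSS higher on the deposited TPM, and SQLE was not called; after scaling FDFT1 and SQLE were called lower. FDFT1, squalene synthase, joins 2 farnesyl diphosphates in the step that commits them to sterols. It stood at 79.42, 81.51 and 82.04 TPM under the ISLR label and at 104.13, 106.46 and 110.14 TPM under the NC label. Every library labelled ISLR was below every library labelled NC, with means of 81.0 ± 1.39 and 106.9 ± 3.03 TPM (SD, n = 3 each). The log2 fold was -0.40 (95% interval -0.49 to -0.31, limma adjusted p = 0.000388), and -0.64 after scaling (-0.72 to -0.56, adjusted p = 6.55e-05). In GENCODE 29 on GRCh38, FDFT1 is a gene on chromosome 8, plus strand, at 11795573 to 11839309. Its abundant neighbour CTSB lay at 127.95 to 134.86 TPM under the ISLR label and at 123.76 to 130.7 TPM under the NC label, so the groups of that gene overlapped.

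SQLE, the squalene epoxidase and a rate-limiting step of the later pathway, stood at 40.41, 39.69 and 43.25 TPM under the ISLR label and at 46.18, 38.52 and 39.08 TPM under the NC label. The groups overlapped and the log2 fold was -0.00 (limma adjusted p = 0.993), against -0.24 after scaling (adjusted p = 0.0415). LSS, which closes the epoxide to lanosterol, stood at 13.92, 14.77 and 14.64 TPM under the ISLR label and at 9.35, 11.09 and 11.55 TPM under the NC label. All 3 libraries labelled ISLR were above those labelled NC. Its log2 fold was 0.41 (0.19 to 0.62, limma adjusted p = 0.00978), and 0.18 after scaling, where it was not called (adjusted p = 0.155).

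Among the 8 enzymes after lanosterol, 1 was called lower and none higher on the deposited TPM, and 3 were called lower and none higher after scaling. MSMO1, which oxidises the methyl groups at C4 of the sterol ring, stood at 79.38, 79.00 and 83.66 TPM under the ISLR label and at 110.85, 101.32 and 103.95 TPM under the NC label. The groups were well apart, with means of 80.7 ± 2.59 and 105.4 ± 4.92 TPM (SD, n = 3 each). The log2 fold was -0.38 (95% interval -0.49 to -0.27, limma adjusted p = 0.000928), and -0.63 after scaling (-0.73 to -0.52, adjusted p = 0.000138). MSMO1 lies on chromosome 4, plus strand, at 165327623 to 165343160, directly after the printed stretch. Of its neighbours, CPE stood at 27.27 to 28.4 TPM under the ISLR label and at 30.57 to 31.92 in those labelled NC, and KLHL2 at 4.71 to 4.99 and 3.28 to 3.87 TPM.

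The other enzymes after lanosterol were not called on the deposited TPM. CYP51A1, the lanosterol demethylase, stood at 28.55, 27.63 and 27.5 TPM under the ISLR label and at 25.58, 25.8 and 25.24 TPM under the NC label. The groups did not overlap, yet the log2 fold of 0.12 was not called (limma adjusted p = 0.0841), and after scaling it was -0.12 (adjusted p = 0.121). NSDHL, which takes the oxidised C4 group off, had overlapping groups and a log2 fold of 0.10 (adjusted p = 0.326). EBP, the sterol isomerase, overlapped between groups and had log2 folds of -0.08 (adjusted p = 0.227) and, after scaling, -0.33 (adjusted p = 0.00515). DHCR7, which reduces 7-dehydrocholesterol to cholesterol, stood at 51.25, 51.25 and 51.97 TPM under the ISLR label and at 48.86, 48.62 and 47.22 TPM under the NC label. The libraries labelled ISLR were all slightly higher, with a log2 fold of 0.09 (limma adjusted p = 0.104), and the scaled fold was -0.15 and called lower (adjusted p = 0.0256).

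The remaining enzymes after lanosterol were called on neither scale. SC5D, the desaturase before DHCR7, had a log2 fold of 0.16, and TM7SF2, a sterol reductase, one of 0.05 with levels from 4.49 to 8.77 TPM among the libraries labelled ISLR alone. HSD17B7, the sterol ketoreductase, stood at 12.42, 7.43 and 6.59 TPM under the ISLR label and at 4.54, 6.18 and 6.75 TPM under the NC label. The groups overlapped and replicate 1 labelled ISLR stood apart, and the log2 fold of 0.49 was not called (limma adjusted p = 0.127). Without that library the fold was 0.24 (adjusted p = 0.289). A pseudogene copy, HSD17B7P2, was listed at 1.19 to 1.4 TPM, and how reads were divided between it and HSD17B7 is not given.

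Over the 18 sterol enzymes, 3 were called higher and 2 lower on the deposited TPM, and 0 higher and 6 lower after scaling. No sterol enzyme was higher after scaling at an unadjusted limma p under 0.05 either. Their median log2 fold was 0.14 and, after scaling, -0.10, while that of all tested genes was 0.22 and 0.00. Of the 18, 14 had a positive fold on the deposited TPM and 14 a negative one after scaling. On the deposited TPM, the sum of the 18 was 885.3 ± 17.27 under the ISLR label and 873.4 ± 20.01 under the NC label (SD, n = 3 each). This difference was smaller than the spread between replicates on that scale. Within that sum, the mevalonate enzymes held 423 ± 11.3 and 373 ± 21.9 TPM, the 3 squalene and lanosterol enzymes 137 ± 3.13 and 159 ± 2.46 TPM, and the 8 later enzymes 326 ± 8.28 and 342 ± 4.31 TPM, in the same order.

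**Figure D2:**
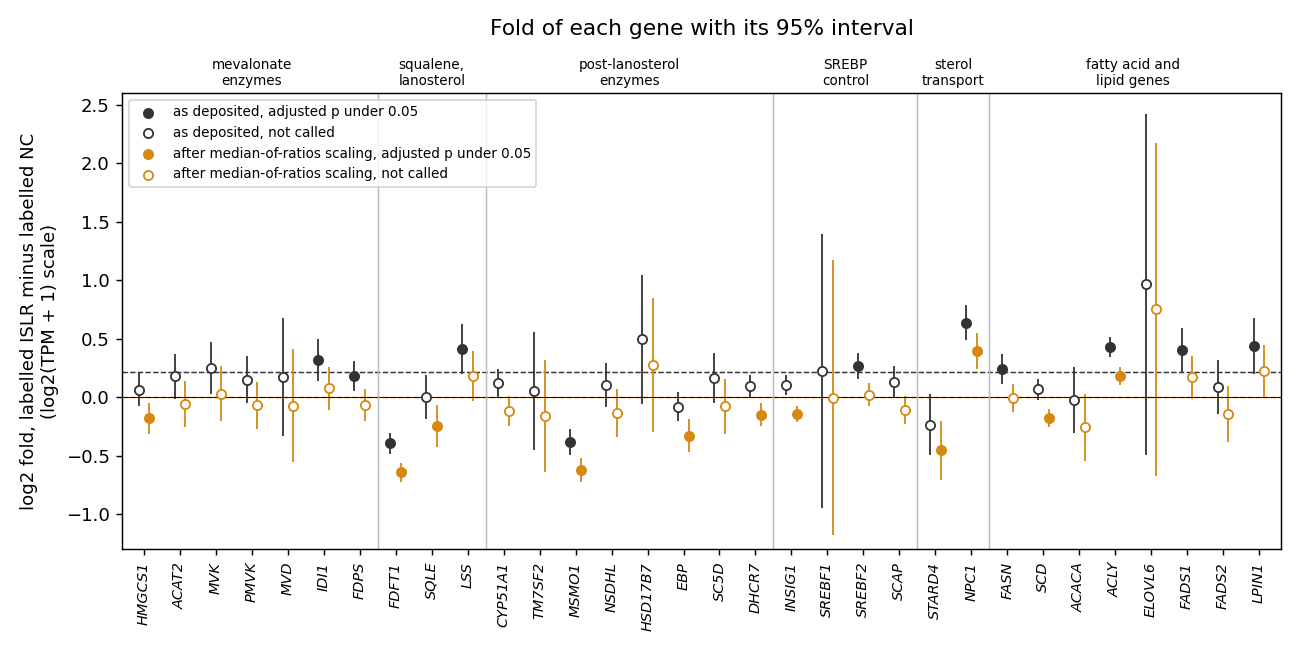
log2 fold of each gene, labelled ISLR minus labelled NC, with 95% intervals from limma, on the deposited TPM and after median-of-ratios scaling; dashed lines mark the median of all tested genes on each scale (0.22 and 0.00). FDFT1 and MSMO1 lie below 0 and NPC1 and ACLY above it on both scales, while the folds of FDPS, DHCR7, SCD and other genes lie above 0 on the deposited TPM and below it after scaling.

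Of the 4 control genes, SREBF2 was called higher on the deposited TPM, none was called lower, and after scaling INSIG1 was called lower and none higher. SREBF2 stood at 54.25, 56.57 and 59.36 TPM under the ISLR label and at 46.48, 47.03 and 47.43 TPM under the NC label. The groups did not overlap, with a log2 fold of 0.27 (0.15 to 0.38, limma adjusted p = 0.00403), and 0.02 after scaling (adjusted p = 0.715), close to the median of all tested genes. Its antisense gene SREBF2-AS1 lay between 1.85 and 2.41 TPM in the 6 libraries.

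INSIG1, the sterol-dependent brake and itself an SREBP target, was the most abundant gene of the set, at 262.59, 275.3 and 280.63 TPM under the ISLR label and at 258.44, 247.02 and 257.57 TPM under the NC label. The libraries labelled ISLR were all higher by a small margin. INSIG1 had a log2 fold of 0.10 (0.02 to 0.18, limma adjusted p = 0.0543), and -0.15 after scaling (adjusted p = 0.00661). SCAP, the escort of SREBP, had a log2 fold of 0.13 (adjusted p = 0.0918) and was not called on either scale. Without labelled ISLR replicate 1 both were called higher on the deposited TPM, INSIG1 at an adjusted p of 0.0317 and SCAP at 0.0446 (limma). The direction of INSIG1 depended on the scaling. It was called higher with the expression trend removed (log2 fold 0.11, limma adjusted p = 0.0250) and with a filter of 5 TPM (0.0451), and lower with the length trend removed (-0.16, adjusted p = 0.00537), and its fold was 0.10 after quantile normalization (adjusted p = 0.0555).

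SREBF1, the source of SREBP-1a and SREBP-1c, stood at 13.41, 14.01 and 12.89 TPM under the ISLR label and at 7.62, 25.05 and 7.40 TPM under the NC label. The libraries labelled ISLR lay between the outer values of those labelled NC, where replicate 2 stood far above the other pair. The log2 fold over all 6 libraries was 0.22 (limma adjusted p = 0.725). Without labelled NC replicate 2 it was 0.76, called higher (adjusted p = 0.00203). RAI1, which overlaps SREBF1 by 1055 bases on the opposite strand, was at 8.7 TPM in that library and at 9.7 and 9.89 TPM in the other libraries labelled NC, against 13, 14.12 and 19.32 TPM under the ISLR label. RAI1 was thus higher in each library labelled ISLR, and its part in the SREBF1 values was not tested.

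Of the carriers of sterol, NPC1 was called higher on both scales, and STARD4 was called lower after scaling. NPC1, which moves cholesterol out of lysosomes after uptake, stood at 33.54, 34.14 and 31.15 TPM under the ISLR label and at 21.63, 19.79 and 21.1 TPM under the NC label. The groups were far apart, with means of 32.9 ± 1.58 and 20.8 ± 0.947 TPM (SD, n = 3 each). The log2 fold of 0.64 (95% interval 0.49 to 0.78, limma adjusted p = 0.000429) was 0.40 after scaling (0.24 to 0.55, adjusted p = 0.00330). NPC1 lies on chromosome 18, minus strand, at 23506184 to 23586898 and overlaps RMC1 on the other strand by 25624 bases. Whether reads were counted by strand is not given, and RMC1 stood at 26.62, 24.01 and 24.23 TPM under the ISLR label and at 23.39, 24.54 and 24.38 TPM under the NC label, groups that overlapped. STARD4, a soluble sterol carrier and SREBP-2 target, stood at 5.66, 7.08 and 6.09 TPM under the ISLR label and at 8.4, 7.02 and 7.28 TPM under the NC label. Its groups overlapped, and its log2 fold of -0.24 (adjusted p = 0.122) was -0.45 and called lower after scaling (adjusted p = 0.0148).

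Of the 8 fatty acid and lipid genes, ACLY, FASN, FADS1 and LPIN1 were called higher on the deposited TPM and none lower, also at an unadjusted limma p under 0.05, while the authors' deposited table has 1 gene, ACACA, with an adjusted p under 0.05 and a lower mean. After scaling ACLY was the 1 gene called higher and SCD the 1 called lower. The median log2 fold was 0.32 on the deposited TPM and 0.08 after scaling. ACLY, which makes the cytosolic acetyl-CoA used by both pathways, stood at 148.98, 151.2 and 158.77 TPM under the ISLR label and at 111.51, 114.43 and 114.08 TPM under the NC label. The groups did not overlap, with means of 153.0 ± 5.13 and 113.3 ± 1.59 TPM (SD, n = 3 each). Its log2 fold was 0.43 (95% interval 0.34 to 0.52, limma adjusted p = 0.000266) and 0.18 after scaling (0.10 to 0.26, adjusted p = 0.00508). ACLY lies on chromosome 17, minus strand, at 41866908 to 41930542. An overlapping gene on the other strand, AC125257.2, was listed at 24.89 TPM in labelled ISLR replicate 2, and without that library ACLY was still called higher.

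FASN, the fatty acid synthase, stood at 206.92, 231.16 and 230.35 TPM under the ISLR label and at 183.22, 197.65 and 184.87 TPM under the NC label. The libraries labelled ISLR were all higher. FASN had a log2 fold of 0.24 (0.11 to 0.36, limma adjusted p = 0.00987), and -0.01 after scaling (adjusted p = 0.893), close to the median of all tested genes. FASN was still called higher after quantile normalization (0.22, adjusted p = 0.0176) and with the expression trend removed (0.23, adjusted p = 0.0140), and not with the length trend removed (-0.10, adjusted p = 0.172). ACACA, the carboxylase that makes malonyl-CoA for it, had overlapping groups, from 12.6 to 13.43 TPM under the ISLR label and from 11.12 to 15.74 TPM under the NC label, and was called on neither scale.

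Among the desaturases FADS1 was called higher on the deposited TPM, and SCD lower after scaling. FADS1, the delta-5 desaturase of polyunsaturated fatty acids, stood at 20.04, 22.59 and 20.27 TPM under the ISLR label and at 16.82, 14.59 and 15.34 TPM under the NC label. The groups did not overlap, and the log2 fold was 0.41 (0.22 to 0.59, limma adjusted p = 0.00582), against 0.17 after scaling (adjusted p = 0.124). FADS2, the delta-6 desaturase, stood at 15.85, 14.51 and 13.2 TPM under the ISLR label and at 12.8, 12.91 and 15.18 TPM under the NC label. Its groups overlapped (log2 fold 0.09, adjusted p = 0.508). The 2 genes overlap by 29694 bases on opposite strands, so reads of one may have been counted for the other, and the ratio of FADS1 to FADS2 overlapped between the groups (exact permutation p = 0.2). SCD, which makes oleate, stood at 122.87, 123.15 and 130.49 TPM under the ISLR label and at 120.8, 116.91 and 121.87 TPM under the NC label. On the deposited TPM the groups were separated by about 1 TPM, with a log2 fold of 0.07 (limma adjusted p = 0.205). After scaling every library labelled ISLR was below those labelled NC, and the fold was -0.18, called lower (adjusted p = 0.00516).

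ELOVL6, which lengthens palmitate, had the highest fold of the set and no call. It stood at 6.56, 26.1 and 5.28 TPM under the ISLR label and at 5.23, 3.9 and 4.69 TPM under the NC label. Replicate 2 labelled ISLR was at 3.98 times the next library, and the other libraries lay close together, so that the groups were separated by 5.28 against 5.23 TPM. The log2 fold was 0.96 (-0.49 to 2.42, limma adjusted p = 0.230), and 0.30 without that library (adjusted p = 0.163). Such a single high library was found in 125 of the tested genes (0.901%), 14 of them high in labelled ISLR replicate 2. LPIN1, the phosphatidate phosphatase that makes diacylglycerol, stood at 7.21, 7.58 and 8.98 TPM under the ISLR label and at 5.5, 5.66 and 5.55 TPM under the NC label. All libraries labelled ISLR were above those labelled NC, with a log2 fold of 0.44 (0.20 to 0.67, limma adjusted p = 0.0110), and 0.22 after scaling (adjusted p = 0.105).

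Set side by side, 4 of 8 fatty acid genes and 3 of 18 sterol enzymes were called higher on the deposited TPM, where 38.5% of all tested genes were. After scaling 1 of 8 and 0 of 18 were called higher, against 18.2%, and 1 of 8 and 6 of 18 lower, against 20.4%. On the deposited TPM, the sum of the 8 fatty acid genes was 570 ± 25.9 under the ISLR label and 475 ± 7.41 under the NC label (SD, n = 3 each), and 558 ± 21.1 and 470 ± 8.07 without ELOVL6. Divided by the sum of the sterol enzymes in the same library, a ratio that 1 factor per library does not change, it was 0.600, 0.680 and 0.654 in the libraries labelled ISLR and 0.540, 0.560 and 0.530 in those labelled NC. The ratio was higher in each library labelled ISLR. FASN, SCD and ACLY make up most of the fatty acid sum, so the ratio mainly follows them. Taking each gene equally, the mean log2(TPM + 1) of the fatty acid genes without ELOVL6 exceeded that of the sterol enzymes by 0.21, 0.29 and 0.31 in the libraries labelled ISLR and by 0.13, 0.17 and 0.12 in those labelled NC. With ELOVL6 included the differences were -0.09, 0.22 and -0.03 against -0.17, -0.18 and -0.21, with the top value in the library where ELOVL6 was high. Alternatives that move genes of a library by unequal amounts do change the gap: the median log2 fold of the fatty acid genes exceeded that of the sterol enzymes by 0.19 on the deposited TPM, 0.18 after scaling, 0.22 after quantile normalization, and 0.10 and 0.21 with scaling and the trend with gene length or expression removed.

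Ratios between genes of the set were also taken within each library, where 1 factor per library cancels out. The pairs were chosen after their values had been seen, and with 3 libraries against 3 an exact two-sided permutation test cannot go below p = 0.1. FDFT1 over FDPS, squalene synthase over the enzyme that makes its substrate, was 0.401 ± 0.0314 under the ISLR label and 0.599 ± 0.0172 under the NC label (SD, n = 3 each, exact p = 0.1). MSMO1 over CYP51A1 was 2.89 ± 0.134 and 4.13 ± 0.203 (exact p = 0.1). Both ratios were lower in every library labelled ISLR. NPC1 over INSIG1 was 0.121 ± 0.00878 and 0.0819 ± 0.00179, and ACLY over SCD was 1.22 ± 0.00789 and 0.946 ± 0.0291, both higher in every library labelled ISLR (exact p = 0.1 each). Quantile normalization and removal of a length or expression trend do change such pairs, and over the deposited TPM and the 4 other scalings the difference of log2 folds ran from -0.64 to -0.58 for FDFT1 and FDPS, from -0.51 to -0.38 for MSMO1 and CYP51A1, from 0.31 to 0.54 for NPC1 and INSIG1 and from 0.36 to 0.38 for ACLY and SCD. INSIG1 over SCAP overlapped between groups, at 6.22 ± 0.275 and 6.36 ± 0.192 (exact p = 0.5), as did SREBF2 over SREBF1 (exact p = 0.9) and FADS1 over FADS2 (exact p = 0.2).

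**Figure D3:**
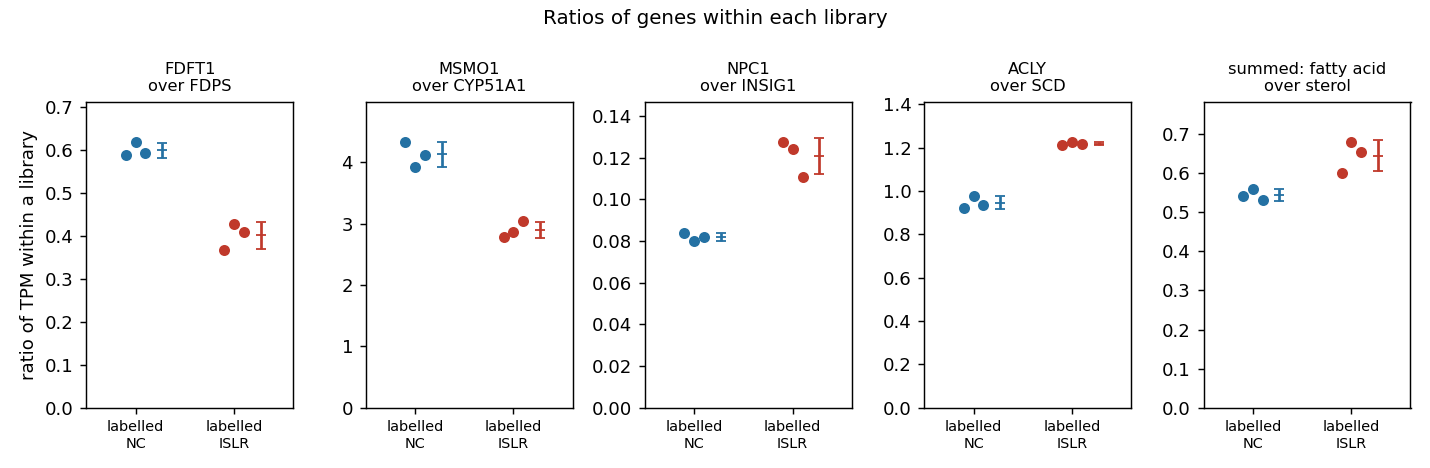
Ratios of TPM between pairs of genes within each library; points are libraries, bars show the mean ± SD of the 3 libraries of a group. FDFT1 over FDPS and MSMO1 over CYP51A1 are lower, and NPC1 over INSIG1 and ACLY over SCD higher, in every library labelled ISLR, as is the summed TPM of the fatty acid genes over that of the sterol enzymes (0.600 to 0.680 against 0.530 to 0.560).

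Other genes of these pathways were counted from lists chosen by function, to be read against 38.5% of all tested genes called higher and 7.38% lower on the deposited TPM, and 18.2% and 20.4% after scaling. Of 5 tested genes among the other sterol synthesis genes, 1 was called higher and none lower on the deposited TPM, and none higher and 3 lower (60%) after scaling. The 1 called higher was FAXDC2, related to the C4 oxidase, at 2.39, 2.16 and 3.11 TPM under the ISLR label and at 0.75, 1.3 and 1.86 TPM under the NC label (log2 fold 0.65, limma adjusted p = 0.0383; not called after scaling). The isoprenoid branch, which uses farnesyl diphosphate for other products, had 5 of 12 called higher (41.7%, near the 38.5% of all tested genes) and none lower, and 4 higher (33.3% against 18.2%) and 1 lower (8.33% against 20.4%) after scaling. GGPS1, which makes geranylgeranyl diphosphate, stood at 21.06, 20.14 and 23.53 TPM under the ISLR label and at 10.43, 10.32 and 8.85 TPM under the NC label. Its groups did not overlap (log2 fold 1.06, limma adjusted p = 0.000294; 0.82 after scaling, adjusted p = 0.000702). PGGT1B, a subunit of geranylgeranyl transferase, and NUS1, a subunit of the dolichol-forming transferase, were also called higher on both scales, with log2 folds of 0.94 and 0.49 on the deposited TPM.

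The other genes of SREBP control had 8 of 13 called higher (61.5% against 38.5% of all tested genes) and 1 lower (7.69% against 7.38%), and 6 higher (46.2% against 18.2%) and 1 lower (7.69% against 20.4%) after scaling. FAF2, which takes part in pulling ubiquitinated INSIG1 from the membrane for degradation, stood at 34.56, 33.78 and 34.72 TPM under the ISLR label and at 14.04, 12.93 and 14.39 TPM under the NC label. The groups were far apart, with a log2 fold of 1.26 (limma adjusted p = 5.21e-05), and 1.02 after scaling (adjusted p = 7.63e-05). MBTPS1, the first protease that cleaves SREBP, had a log2 fold of 0.64 and 0.40 after scaling, and ERLIN1, a membrane protein of the endoplasmic reticulum that binds cholesterol, 0.57 and 0.34, each called higher on both scales. PGRMC1, a heme-binding membrane protein named after its values were seen, was the 1 gene called lower, with a log2 fold of -0.26 and -0.50 after scaling.

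Sterol uptake and movement had 5 of 13 called higher (38.5%, as over all tested genes) and 2 lower (15.4% against 7.38%) on the deposited TPM, and 2 higher (15.4% against 18.2%) and 6 lower (46.2% against 20.4%) after scaling. OSBP, which exchanges sterol between membranes, and VLDLR, a lipoprotein receptor, were called higher on both scales (log2 folds of 0.60 and 0.76), and SCARB1, a high-density lipoprotein receptor, on the deposited TPM only (0.28). Of the genes of efflux and storage 4 of 5 tested were called higher (80% against 38.5% of all tested genes) and none lower, and 2 higher (40% against 18.2%) and 1 lower (20% against 20.4%) after scaling. NR1H3 and NR1H2, the oxysterol receptors LXR alpha and LXR beta, were called higher on both scales, with log2 folds of 1.18 and 0.55 on the deposited TPM. NR1H3 stood at 5.65, 6.01 and 5.63 TPM under the ISLR label and at 1.59, 1.9 and 2.56 TPM under the NC label, with no overlap. SOAT1, which esterifies cholesterol, had a log2 fold of 0.36 and was not called after scaling.

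Among the other fatty acid synthesis genes 10 of 26 were called higher (38.5%, as over all tested genes) and none lower, and 6 higher (23.1% against 18.2%) and 7 lower (26.9% against 20.4%) after scaling. HACD3, a dehydratase-family protein of fatty acid elongation, stood at 108.91, 110.84 and 116.61 TPM under the ISLR label and at 73.87, 71.16 and 74.11 TPM under the NC label. The groups did not overlap (log2 fold 0.61, limma adjusted p = 0.000128; 0.36 after scaling, adjusted p = 0.000412). MID1IP1, a protein that promotes polymerisation of acetyl-CoA carboxylase, and ACSL1, a fatty acyl-CoA ligase, were called higher on both scales (log2 folds of 0.62 and 0.63). Glycerolipid synthesis had 6 of 16 called higher (37.5% against 38.5%) and none lower, and 5 higher (31.2% against 18.2%) and 1 lower (6.25% against 20.4%) after scaling, with the acyltransferases AGPAT1, GPAM and GPAT3 higher on both scales (log2 folds of 0.39, 0.74 and 0.58). Fatty acid oxidation had 5 of 21 called higher (23.8% against 38.5%) and 1 lower (4.76% against 7.38%), and 2 higher (9.52% against 18.2%) and 9 lower (42.9% against 20.4%) after scaling. CPT1C, the neuronal form of carnitine palmitoyltransferase, was the gene called lower (log2 fold -0.46, limma adjusted p = 0.00159; -0.70 after scaling), CPT2 was called higher on both scales (0.74), and ETFB, an electron carrier, on the deposited TPM only (0.22).

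The authors' deposited table also gives an adjusted p for each gene, under 0.05 for 51.2% of the tested genes and for 22 of the 32. In the authors' deposited table this p was small for genes with nearly equal mean TPM. INSIG1 had an adjusted p of 4.06e-46 at a log2 ratio of mean TPM of 0.10, and SCD 7.55e-20 at 0.07, in the authors' deposited table. IDI1 had 0.833 at a ratio of 0.32 and FADS1 0.415 at 0.43 in that same deposited table of the authors. Among genes with a mean of at least 20 TPM in both groups, the share under 0.05 in the authors' deposited table was 93.3% at a log2 ratio of -0.1 to 0, fell to 16.4% at 0.3 to 0.4, and was 84.2% at 0.5 to 0.6. No direction is given with that p, so the calls above rest on the TPM of each library.

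**Figure D4:**
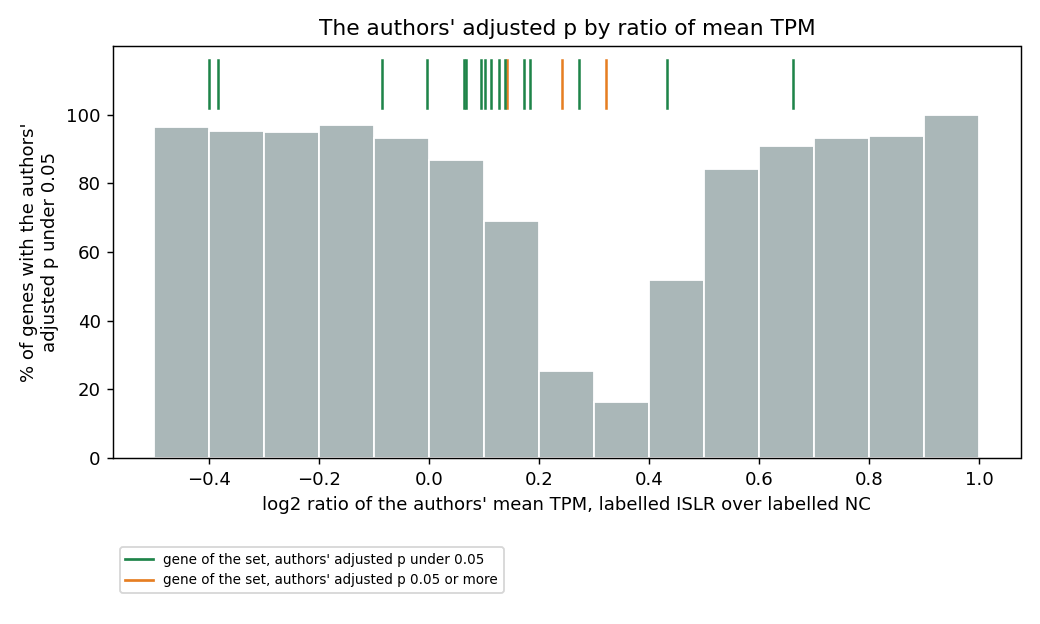
Share of genes (%) whose adjusted p in the authors' deposited table is under 0.05, by the log2 ratio of the authors' mean TPM (labelled ISLR over labelled NC), for genes with at least 20 mean TPM in both groups; vertical marks at the top are the 19 genes of the set at that level, green under 0.05 and orange not. The share is lowest, 16.4%, at a ratio of 0.3 to 0.4, and 9 of the 10 marked genes with a ratio between 0 and 0.2 are green.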

How the data were processed

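RNA-seq values of 6 libraries, 3 labelled ISLR and 3 labelled NC, were taken as TPM per gene from the authors' deposited table, and groups from the sample titles. HISAT2, Cufflinks and RSEM are named per the submitters' processing notes for build GRCh38.p10, with no role, version or use of strand given. The deposited table also holds the authors' p-values, whose input is not given here. No read counts were used, so no count model was run; 1 blank row was left out.

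Genes with at least 1 TPM in 3 libraries were fitted on log2(TPM + 1) with limma 3.58.1 (trend and robust options, group as the only term) in R 4.3.3, and again after median-of-ratios scaling. As alternatives, the pseudocount was set to 0.1 or 5 and the filter to none or 5 TPM; further ones were quantile normalization, limma with neither option, a replicate block, each library left out, an adjusted p of 0.01, the authors' adjusted p, and, added after seeing the data, removal of trends with gene length or expression by lowess (span 0.3) with scaling. The fit was tested on simulated data.

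The genes named are the 32 members and up to 3 genes of each further list with the smallest p, and PGRMC1, added after its value was seen. Members and lists were chosen with earlier results of these data known. Promoter sequences are RefSeq's on GRCh38.p14, and positions are from GENCODE 29. ACAT2, FDFT1, SQLE and FASN had no entry in the promoter table used. Some further list members are counted but not named here. Plots come from matplotlib 3.10.9 under Python 3.11.15.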

Additional observations from a re-analysis of the deposited data

How the results depend on the processing

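FDFT1 and MSMO1 (lower) and NPC1 and ACLY (higher) kept their direction and call in each of the 17 alternatives other than the authors' p, with log2 folds of -0.64 to -0.37, -0.63 to -0.34, 0.32 to 0.67 and 0.11 to 0.45. What moved most was the level taken as no change, and the cause of that shift was not tested. Every library labelled ISLR had more genes at 1 TPM or more, 14004 to 14092 against 13365 to 13470 under the NC label. How this difference relates to the shift or to low genes was not tested. Genes of the further lists are given on the deposited TPM and after median-of-ratios scaling only. With scaling, all tested genes gave 2521 called higher and 2827 lower, sterol enzymes 0 and 6, fatty acid genes 1 and 1, and median log2 folds of -0.098 and 0.080. Log2 folds then reversed for ACAT2 (-0.058), CYP51A1 (-0.118), DHCR7 (-0.152), FADS2 (-0.147), FASN (-0.0098), FDPS (-0.068), HMGCS1 (-0.181), INSIG1 (-0.148), MVD (-0.074), NSDHL (-0.134), PMVK (-0.071), SC5D (-0.079), SCAP (-0.112), SCD (-0.182), SREBF1 (-0.0060) and TM7SF2 (-0.163). Quantile normalization gave 2454 higher and 2111 lower, no sterol enzyme higher (0) and 2 fatty acid genes higher. It reversed ACAT2 (-0.086), CYP51A1 (-0.083), DHCR7 (-0.061), FADS2 (-0.179), HMGCS1 (-0.070), MVK (-0.043), NSDHL (-0.141), PMVK (-0.144), SC5D (-0.026), SCAP (-0.030), SREBF1 (-0.039) and TM7SF2 (-0.237).

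With the length trend removed, counts were 2274 and 2813 over all genes, 0 and 5 for sterol enzymes and 1 and 1 for fatty acid genes, with medians of -0.096 and -0.00099. Reversed folds were ACAT2 (-0.085), CYP51A1 (-0.144), DHCR7 (-0.146), FADS2 (-0.233), FASN (-0.097), FDPS (-0.0045), HMGCS1 (-0.271), INSIG1 (-0.160), MVD (-0.042), MVK (-0.032), NSDHL (-0.052), SC5D (-0.171), SCAP (-0.179), SCD (-0.271), SREBF1 (-0.084), SREBF2 (-0.072) and TM7SF2 (-0.108). With the expression trend removed, counts were 2389 and 2189 over all genes, 0 sterol enzymes and 2 fatty acid genes higher, with medians of -0.075 and 0.140. Reversed folds were ACAT2 (-0.074), CYP51A1 (-0.093), DHCR7 (-0.055), FADS2 (-0.188), HMGCS1 (-0.076), MVK (-0.059), NSDHL (-0.138), PMVK (-0.154), SC5D (-0.025), SCAP (-0.033), SREBF1 (-0.055) and TM7SF2 (-0.253).

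An adjusted p under 0.01 left 3883 genes, 3342 higher and 541 lower, with 1 sterol enzyme higher. The authors' p, with the direction of their mean TPM, gave 2540 genes lower, 7 sterol enzymes higher and 4 lower, and 1 fatty acid gene lower. No direction is given with that p, so these counts take theirs from the mean TPM alone. The share under 0.05 was 86.9% at a log2 ratio of 0 to 0.1 and lowest, 16.4%, at 0.3 to 0.4. The direction of the authors' test is thus unknown for genes with small positive ratios. Over the 6 fits without 1 library, log2 folds ranged from -0.148 to 0.085 for ACACA, -0.034 to 0.365 for MVD, -0.047 to 0.081 for SQLE, -0.055 to 0.762 for SREBF1 and -0.101 to 0.314 for TM7SF2, none of them called in the comparison of all 6 libraries. The call of FDPS was also lost with no filter (limma adjusted p = 0.0741) and with neither limma option (0.0853). The same replicate number did not pair libraries (correlations of deviations 0.020, 0.047 and -0.056), and the replicate block changed no call of a member, with 4841 genes higher and 937 lower. Depth is unknown, so its limit on low genes such as ELOVL6 and TM7SF2 cannot be given.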
